A study of Nasonia vitripennis x Nasonia giraulti with 2 samples.

Results

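The F1VG hybrid carries one genome of *Nasonia vitripennis* (Nv), inherited from the mother, and one of *Nasonia giraulti* (Ng), inherited from the father, so that in every diploid cell a V allele (Va) and a G allele (Ga) share a nucleus. The V and G alleles of this hybrid were compared at its methylated CpGs, which were taken as the CpGs with a pooled V plus G methylation level of at least 10% in the F1VG library, whether or not they were also listed for the reciprocal cross. Of the 5804802 CpGs listed for F1VG on 2738 scaffolds, 178802 (3.08%) on 1550 scaffolds met this level. Of these, 111043 (62.1%) lay in 13027 runs, a run being at least 4 methylated CpGs with no gap above 1000 bp between neighbours, on 437 scaffolds, and 67759 lay outside runs. F1VG was a single library made from whole bodies of 50 pooled female adults, 24 h after eclosion, of a cross between the inbred strains AsymCX (Nv) and R16A (Ng). The reciprocal hybrid F1GV (Ng mother, Nv father), from the same strains, sex, stage, tissue and number of pooled adults, was also a single library and was used here only to set beside F1VG.

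In DNA methylation a methyl group is added to cytosine, in animals mostly where a guanine follows it (CpG). In mammals a maintenance methyltransferase (Dnmt1) copies the mark onto new strands after replication and Dnmt3 enzymes add new marks. The paper states that the functions of these enzymes in insects are inferred from other organisms and not known. *Nasonia* carries both enzymes. Methylation in hymenopteran genomes is sparse and concentrated in the exons of transcribed genes, with most of the genome unmethylated. Wasps of the genus *Nasonia* are haplodiploid. Males develop from unfertilized eggs, so both alleles of a locus can be compared only in females. Bisulfite treatment converts unmethylated cytosine, and a cytosine that stays unconverted is counted as methylated. In a hybrid between species, reads that cover a fixed difference reveal which allele they come from, and a difference between the alleles is called allele-specific methylation (ASM).

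The counts over all reads at the listed CpGs summed to 286833473 in F1VG, and 129585429 V counts and 124943756 G counts could be given to an allele. Every listed CpG had at least 8 reads on each allele. The methylated CpGs had a median V depth of 17 reads (quartiles 12 and 23) and a median G depth of 16 (quartiles 11 and 22), against 21 and 20 at the other listed CpGs. With 1 library there was no replicate error. All p-values below compare the reads of the alleles within this library, intervals are 95% Wilson intervals, and both cover counting error only, since PCR copies of a molecule would be counted as separate reads and neighbouring CpGs share reads. In F1VG the V allele is always maternal and the G allele always paternal, so that species of the allele and parent of origin cannot be told apart within it. Tissues were pooled in whole bodies, so a level of 50% on an allele may be partial methylation in all cells or full methylation in some of them. Scaffold names and positions follow the files and refer to the Nv v1.0 genome. No annotation of this build was used, so runs carry no gene names. Whether each listed position is also a CpG on the G allele was not tested.

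Over all methylated CpGs the alleles were close. Reads from the V allele were methylated at 33.2% and reads from the G allele at 32%. The mean over CpGs was 30.5% ± 32.1 for V and 29.2% ± 31.5 for G (SD across CpGs), and Va minus Ga averaged 1.24 percentage points with an SD of 25.4 and a median of 0. The V allele had the higher level at 89221 CpGs, the G allele at 85459, and 4122 CpGs were tied. Depth was nearly balanced, since 50.5% of the allelic counts at these CpGs were V counts.

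The methylated CpGs fell into a large low group and a high group. A pooled level of 10% to 20% was found at 118669 of them (66.4%), with means of 12.2% on V and 12.5% on G and a median of 4 methylated reads per CpG. The other 60133 CpGs were at 20% or more, with 66.5% on V and 62.4% on G and a median of 24 methylated reads. Of the low group 46.5% lay in runs, against 92.8% of the high group. Va minus Ga had an SD of 20.3 percentage points in the low group, so its near-equal means do not describe single CpGs. Among all methylated CpGs the fullest bins of 5 percentage points were V at 0 to 5% with G at 20% to 25% (12670 CpGs) and the reverse (12352). Both alleles were at 10% to 15% at 6677 CpGs. The limit of 10% lay within a dense range of levels. The 37485 CpGs just inside it, at 10% to 11%, had 10.02% on V and 10.4% on G, and the 43056 CpGs just outside it, at 9% to 10%, had 9.04% and 9.48%. In F1GV, whose counts the choice of CpGs did not use, the 107688 CpGs of the low group that were listed had a mean level of 2.66% and a median of 0, and 4.90% of them reached 10%. The CpGs at 60% or more had 84.1% in F1VG and 80.5% in F1GV. Since the classes were set by the F1VG level alone, a lower level of the low group in F1GV is in part given by that choice, and what else bears on it was not tested.

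**Figure D1:**
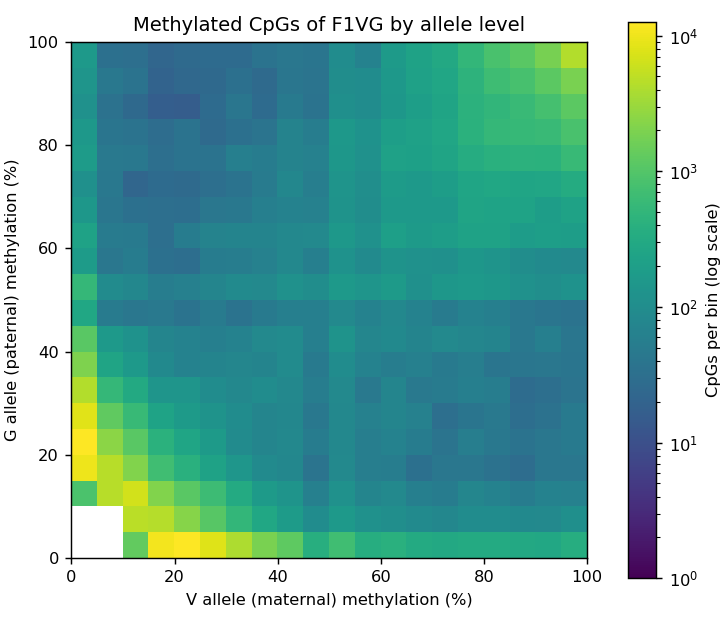
Number of methylated CpGs of F1VG (colour, log scale) by V allele level (x axis, %) and G allele level (y axis, %), in bins of 5 percentage points. Most of the 178802 CpGs sit at the lower left, where the pooled level is near the limit of 10%, and a second group of 35029 CpGs sits at 50% or more on both alleles. The edges along both axes hold CpGs methylated on one allele and near 0 on the other.

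The gap between the alleles was widest at intermediate pooled levels. At 30% to 60% (14410 CpGs) the mean was 50.0% on V and 38.1% on G, with an SD of Va minus Ga of 50.6 percentage points. At 20% to 30% the means were 26.1% and 21.3%. At 60% or more (35872 CpGs) they were 84.3% and 83.4%, and at 80% or more (23783 CpGs) 90.9% and 90.7%. By allele, 35029 CpGs (19.6%) had at least 50% on both, 4710 (2.63%) had at least 50% on V and under 10% on G, and 2446 (1.37%) had the reverse. In 4603 more CpGs V was at 50% or more and G between 10% and 50%, and in 3746 G was at 50% or more and V between these levels. The remaining 128268 CpGs were under 50% on both alleles.

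To find ASM at single CpGs, the reads of the alleles were tested against each other at every listed CpG (Fisher's exact test, two-sided), with Benjamini-Hochberg adjustment over all 5804802, and CpGs passing an adjusted p of 0.05 were called. At the methylated CpGs 4927 were called (2.76%, interval 2.68% to 2.83%), where 0.0851% of all listed CpGs were called (0.0581% with V higher and 0.0269% with G higher), nearly all of them these same CpGs, since 10 called CpGs had a pooled level under 10%. The V allele was higher at 3366 of the 4927 (68.3%, 67.0% to 69.6%) and the G allele at 1561. An unadjusted p under 0.05 was found at 34720 methylated CpGs (19.4%). The largest p of a called CpG was 4.24e-05, so that only wide differences passed. At 17 reads on each allele with none methylated on one of them, 12 methylated reads on the other, or 70.6 percentage points, were needed, and at 30 reads 14 methylated reads, or 46.7 percentage points. When the adjustment was made over the methylated CpGs alone, 10642 were called.

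Most called CpGs had at least 50% on one allele and under 10% on the other, 2673 with V higher and 1148 with G higher. In 539 and 330 more the higher allele was at 50% or more and the lower at 10% to under 50%. Both alleles had at least 50% at 22 called CpGs and under 50% at 215. The median absolute difference of the called CpGs was 76.7 percentage points (quartiles 64.7 and 87.5), a width that is in part given by the threshold. Those with V higher had 80.4% ± 15.4 on V and 4.85% ± 8.25 on G (SD across CpGs), and those with G higher had 6.21% ± 10.6 on V and 81.0% ± 15.4 on G. The lower allele had no methylated read at 1821 (54.1%) of the CpGs with V higher and at 866 (55.5%) of those with G higher. All reads of one allele and no read of the other were methylated at 222 and 107 CpGs. The excess of V was seen where V was the deeper allele (68.8% of 2416 called CpGs) and where G was (68.5% of 2309).

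Calls were concentrated at intermediate levels. At 30% to 60% 24.9% of CpGs were called, 2480 with V higher and 1102 with G higher. At 60% or more 1.5% were called, at 80% or more 16 CpGs, and at 90% or more none. In the low group 148 CpGs (0.125%) were called, 93 with V higher and 55 with G higher, and 4779 of the called CpGs (3273 with V higher and 1506 with G higher) had a level of at least 20%. These classes bound the difference that is possible: at a pooled level near 50% with equal depth it can reach 100 percentage points, and near 10% or 90% it cannot.

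**Figure D2:**
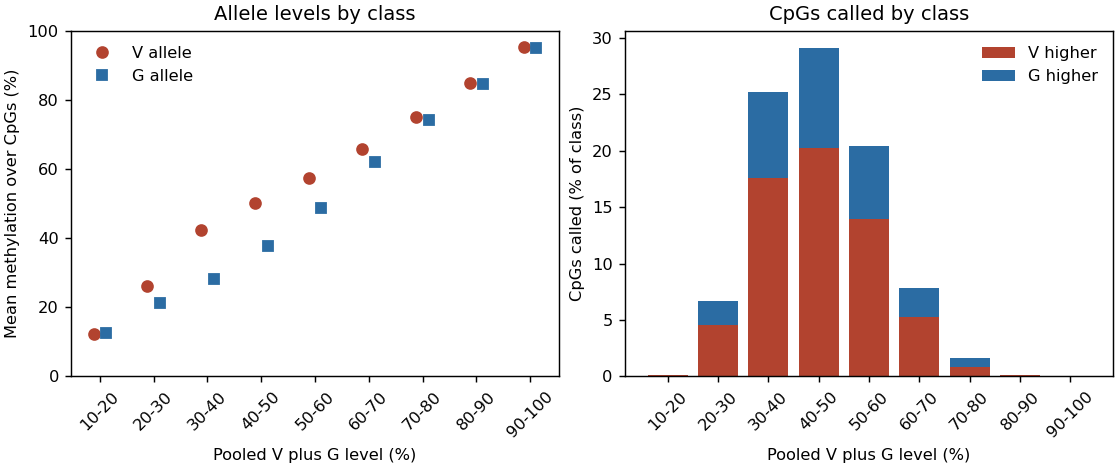
Left, mean V allele (circles) and G allele (squares) methylation (%) over CpGs in each class of pooled level. Right, CpGs called by Fisher's exact test as a percentage of their class, split by the higher allele. The means stand furthest apart at 30% to 40%, 42.5% on V and 28.4% on G, and calls peak at 29.1% of CpGs at 40% to 50%.

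The CpGs with the smallest p were complete or near complete switches, and 3 in each direction are given. At SCAFFOLD123 position 3420 all 43 V reads and none of 45 G reads were methylated (Fisher's exact test, adjusted p = 2.26e-19). At SCAFFOLD4 position 5222032 all 33 V reads and 1 of 55 G reads were methylated, and at SCAFFOLD5 position 2143783 47 of 49 V reads and none of 40 G reads. These are sites where the maternal V allele carried the mark. In the other direction, none of 46 V reads and 38 of 39 G reads were methylated at SCAFFOLD654 position 3376. At SCAFFOLD5 position 1279614 the counts were none of 46 V reads and 41 of 43 G reads, and at SCAFFOLD7 position 2668705 1 of 54 V reads and 42 of 47 G reads. In F1GV, where V is the paternal allele, the same allele was the higher at these 6 CpGs. The largest shift among them was at SCAFFOLD5 position 2143783, where 9 of 33 V reads (27.3%) and none of 25 G reads were methylated in F1GV, against 95.9% of V reads in F1VG.

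Allelic differences ran on from CpG to CpG. Between neighbouring methylated CpGs at most 100 bp apart, which can lie on the same reads, the Pearson correlation of Va minus Ga was 0.54 over 53567 pairs, and at 201 to 500 bp it was 0.10 over 27260 pairs. For CpGs at 20% to 80% it was 0.75 over 11619 pairs at most 100 bp apart, 0.34 over 2157 pairs at 201 to 500 bp, and 0.29 over 1027 pairs at 501 to 1000 bp. These are descriptions across CpGs of a single library, which are not independent. Of the 4927 called CpGs 4647 (94.3%) lay in runs, and they were spread over 288 scaffolds.

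The 13027 runs had a median of 6 methylated CpGs (quartiles 4 and 10) and a median length of 1551 bp. Lengths ranged from 16 to 12175 bp and the largest run held 96 CpGs. Averaged over runs, methylation was 29.2% on V and 28.4% on G. Runs were of 2 kinds, like the CpGs. In 8407 runs the mean pooled level was under 20%. They had a median of 5 methylated CpGs, and these made up a median of 6.59% of the listed CpGs within the run, so that most CpGs between them were under 10%. In the 4620 runs with a mean level of at least 20% the median was 12 methylated CpGs, which made up 61.5% of the listed CpGs, and the mean was 60.1% on V and 56.3% on G.

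For each run the same test was applied to V and G counts summed over CpGs at least 200 bp apart, a spacing longer than a read, with adjustment over all 13027 runs. Of these, 1897 runs on 242 scaffolds were called (14.6%), 1108 with V higher (8.51%) and 789 with G higher (6.06%). The direction of a call is that of the summed counts, and in 47 called runs the mean over all CpGs of the run had the opposite sign. The V share of the calls was 58.4% (56.2% to 60.6%), and it differed with the level of the run. Of the runs with a mean level of at least 20%, 1084 (23.5%) were called, 740 with V higher and 344 with G higher, a V share of 68.3% (65.4% to 71.0%). Of the runs under 20%, 813 (9.67%) were called, 368 with V higher and 445 with G higher.

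The 2 kinds of called run also differed in F1GV, where a run was followed if at least 4 of its CpGs were listed. Among 1073 called runs with a mean level of at least 20%, the sign of the mean difference was kept in F1GV in 925 (86.2%, 84.0% to 88.1%). It was opposite in 147. These 1073 runs averaged 51.7% in F1VG and 49.1% in F1GV. Among 709 called runs under 20%, 354 (49.9%, 46.3% to 53.6%) kept the sign, 306 had the opposite sign and the rest were counted as neither. These 709 runs averaged 13.1% in F1VG and 2.19% in F1GV. The called runs of low level are therefore given here by their counts alone. They were chosen by their F1VG level alone, so that a lower level in F1GV is in part given by the choice and is no measure of a difference between the libraries.

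**Figure D3:**
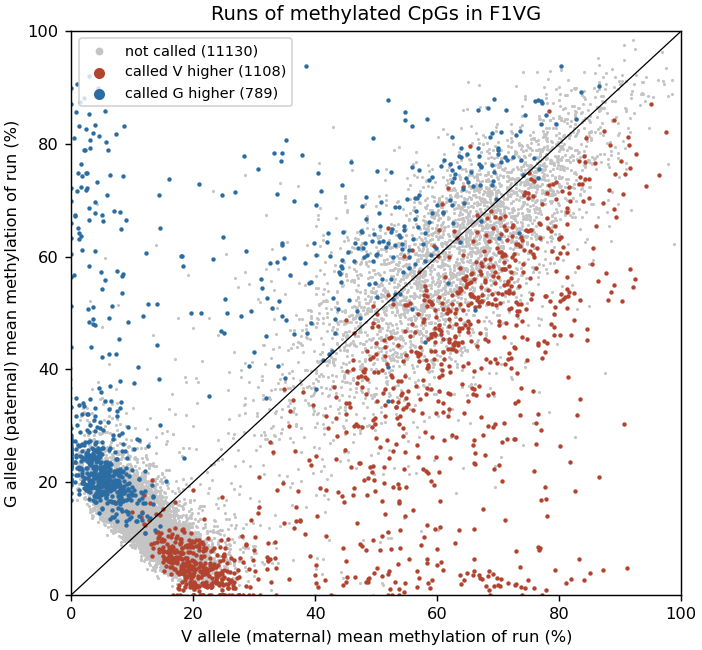
Mean V allele (x axis, %) and mean G allele (y axis, %) methylation of the 13027 runs of F1VG, each point a run, with the diagonal of equal levels. Grey points were not called, red points were called with V higher (1108) and blue points with G higher (789), by the summed counts, so that 47 called points lie on the other side of the diagonal. Called runs form a dense patch at the lower left (mean level under 20%), a band beside the diagonal at high levels, and sparser points along both axes where one allele was near 0.

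Called runs had graded as well as switched differences. Of the 1897, 736 had an absolute mean difference of at least 20 percentage points (438 with V higher and 298 with G higher), and 152 of at least 50. In 2820 runs both alleles had at least 50%, with means of 68.7% on V and 66.6% on G, and 406 of these were called, 272 with V higher and 134 with G higher. Against them stood 78 runs with at least 50% on V and under 10% on G and another 78 with the reverse.

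The 152 runs with a difference of at least 50 percentage points were examined as the clearest ASM of F1VG. V was higher in 81 of them, with 1079 CpGs on 60 scaffolds, and G in 71, with 614 CpGs on 61 scaffolds, and 16 scaffolds held both kinds. The runs with V higher had 69.6% ± 9.82 on V and 6.40% ± 7.37 on G (SD across runs). The runs with G higher had 4.25% ± 5.74 on V and 73.3% ± 9.95 on G. Run sizes, given as a description with no test, had a median of 11 CpGs and 1169 bp where V was higher and 7 CpGs and 773 bp where G was higher. At least 20 CpGs were found in 13 of the former and 4 of the latter. In neither kind was a CpG called against the direction of its run, and every CpG of the run pointed one way in 61 and 62 runs. The runs were chosen by their mean difference, so this agreement is in part given by the choice. Among all called runs, every CpG pointed one way in 237 of 1108 with V higher and 247 of 789 with G higher. A CpG called the other way was held by 33 and 24 of them, and 542 and 550 had no CpG called in their own direction. Within the 152 runs the methylated CpGs made up a median of 84.2% (V higher) and 84.6% (G higher) of the listed CpGs. All 148 that could be followed in F1GV had the same sign there, 80 with V higher and 68 with G higher.

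Reads without an informative difference could not be given to an allele, and they provide a level that did not enter the tests. Their counts were summed over all CpGs of the runs, so a read is counted at each CpG it covers. In the runs with V higher by at least 50 percentage points, 36.4% of 7284 such counts were methylated. At the same CpGs V had 70.6% and G 8.90%, with a midpoint of 39.7%. In the runs with G higher by as much, 34.0% of 4164 such counts were methylated, against 5.89% on V, 73.9% on G and a midpoint of 39.9%. Over all called runs the level was 46.2% where V was higher (midpoint 50.7%) and 36.0% where G was higher (midpoint 42.6%).

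The share of V was larger in larger runs. At a mean level of at least 20%, V was higher in 53.9% of 141 called runs of 4 or 5 CpGs, in 59.6% of 235 runs of 6 to 9 CpGs, in 69.2% of 439 runs of 10 to 19 CpGs and in 79.8% of 242 runs of 20 to 39 CpGs (intervals 45.7% to 61.9%, 53.2% to 65.6%, 64.8% to 73.4% and 74.2% to 84.3%). All 27 called runs of 40 or more CpGs, out of 67, had V higher (87.5% to 100%). The same order was seen when every run of this level was counted by the sign of its mean difference, called or not. Among runs with at least 4 CpGs in F1GV, V was higher in 54.1%, 58.3%, 61.7%, 68.4% and 77.6% in F1VG. In the same runs V was higher in 55.5%, 59.6%, 66.1%, 74.3% and 88.1% in F1GV. Mean Va minus Ga in F1VG went from 1.80 percentage points at 4 or 5 CpGs to 5.80 at 20 to 39 and 9.47 at 40 or more. These shares are given with no test of the trend. Called runs under 20% had no such order, with V higher in 47.1%, 41.4% and 45.8% of those of 4 or 5, 6 to 9 and 10 to 19 CpGs.

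**Figure D4:**
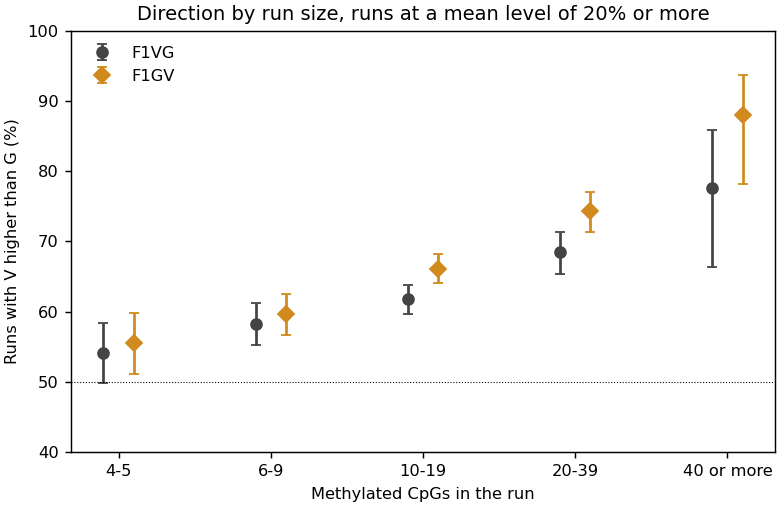
Percentage of runs with a higher V than G mean (y axis, from 40%) by number of methylated CpGs (x axis), for runs with a mean pooled level of at least 20% in F1VG, with 95% Wilson intervals. Circles are F1VG and diamonds the same runs in F1GV. In both libraries the percentage increases with run size, from 54.1% to 77.6% in F1VG and from 55.5% to 88.1% in F1GV.

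The run with the most called CpGs, and the most CpGs, was on SCAFFOLD123 from 2041 to 14215. Its 96 methylated CpGs had 60.01% ± 27.9 on V and 8.13% ± 17.6 on G (SD across CpGs), and 46 were called, all with V higher. Over 30 spaced CpGs 377 of 677 V reads and 71 of 626 G reads were methylated (Fisher's exact test, adjusted p = 6.63e-64). The G allele was near 0 at most CpGs along the run, and the few CpGs that were high on both alleles lay near its ends. In F1GV the same run had 61.3% on V and 6.98% on G at the 95 CpGs listed. It was nevertheless among the runs that passed the test between the libraries described below. Over spaced CpGs listed in both, 391 of 695 V reads and 75 of 638 G reads were methylated in F1VG. In F1GV these counts were 436 of 793 and 44 of 775.

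The second of these, on SCAFFOLD4 from 5219313 to 5225623, was not uniform. Its 86 CpGs had 74.8% on V and 41.6% on G, and 27 were called with V higher and 1 with G higher. The V allele was methylated at nearly all CpGs of the run, while methylation on the G allele was interrupted. In the first 19 CpGs (0 to 1319 bp from the first CpG) V had 80.7% and G 68.3%, in the next 39 (1408 to 4683 bp) V had 69.2% and G 5.15%, and in the last 28 (4740 to 6310 bp) V had 78.5% and G 74.3%. The borders of this block were placed after its values were seen, so the values are a description. In F1GV the block had 64.3% on V and 6.95% on G, and the stretches beside it had 76.0% and 65.4%, and 69.6% and 72.4%.

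On SCAFFOLD87 from 537135 to 539540 the switch was sharp along the whole run. V had 81.1% ± 15.5 and G 2.02% ± 3.70 over 28 CpGs, 24 of which were called. Over 10 spaced CpGs 215 of 259 V reads and 3 of 260 G reads were methylated (Fisher's exact test, adjusted p = 5.91e-92). V was the higher allele at all 28 CpGs, from 30.6% to 100%, and no CpG on G was above 11.1%. On SCAFFOLD35 from 1553142 to 1554880, 39 CpGs had 68.5% on V and 4.30% on G, 25 of them called, and V was higher at each of them, although G reached 40% at position 1553931. On SCAFFOLD26 from 1452903 to 1457064, 40 CpGs had 60.5% on V and 12.0% on G and 21 were called. There G was at 50% or more at 7 of the last 8 CpGs and at no other, with 75% at position 1455682, and G was the higher allele at 2 CpGs. The widest mean difference among runs of at least 10 CpGs with V higher was on SCAFFOLD308 from 292570 to 293797, with 84.1% on V and 2.53% on G over 10 CpGs. Next came SCAFFOLD128 from 25398 to 28369, with 82.0% and 2.72% over 23 CpGs.

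Among the runs methylated on the paternal G allele, SCAFFOLD34 from 904036 to 908395 had the most called CpGs. Its 33 CpGs had 2.97% ± 4.65 on V and 79.4% ± 22.1 on G, and 24 were called. Over 12 spaced CpGs 3 of 199 V reads and 135 of 187 G reads were methylated (Fisher's exact test, adjusted p = 5.05e-52). No CpG on V was above 18.8%, and G was the higher allele at all 33. In F1GV, where G is maternal, the run had 4.49% on V and 65.6% on G at the 32 CpGs listed. A further run on the same scaffold, from 454866 to 457823, was mixed, with 20.9% ± 29.7 on V and 72.9% ± 25.2 on G over 26 CpGs, 14 of them called.

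SCAFFOLD15 from 651066 to 653945 had 1.65% on V and 76.5% on G over 31 CpGs, and 21 were called. The short run on SCAFFOLD5280 from 1283 to 2811 had 2.10% ± 2.55 on V and 88.2% ± 13.3 on G over 15 CpGs, the widest mean difference among runs of at least 10 CpGs in F1VG, and 14 were called. SCAFFOLD2262 from 5093 to 5986 had 1.07% on V and 74.8% on G over 14 CpGs, and 13 were called. In F1GV that run had 3.44% on V and 56.5% on G, and it passed the test between the libraries described below. Named for the width of the difference alone were the runs on SCAFFOLD258 from 19720 to 20743 (1.29% on V and 83.2% on G, 10 CpGs) and on SCAFFOLD52 from 368430 to 369536 (3.81% and 83.4%, 15 CpGs). In each of these 5 runs G was the higher allele at every CpG.

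**Figure D5:**
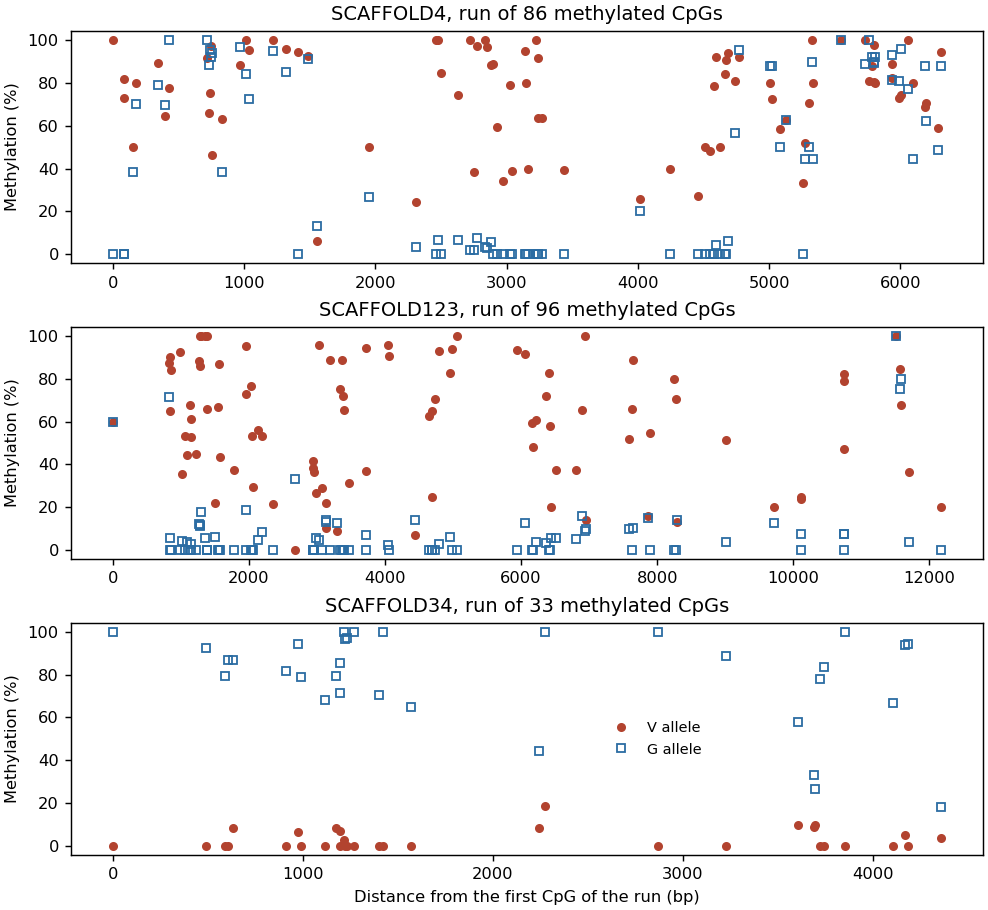
Methylation (%) of the V allele (filled circles) and the G allele (open squares) at each methylated CpG of 3 runs of F1VG, by distance from the first CpG of the run (bp). On SCAFFOLD4 the G allele is near 0 at most CpGs from 1408 to 4683 bp and methylated on either side, on SCAFFOLD123 it is near 0 through most of the run, and on SCAFFOLD34 the V allele stays at or below 18.8%.

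Large runs also had smaller differences or none. The third largest, on SCAFFOLD309 from 46122 to 57488, had 63.5% on V and 44.6% on G over 76 CpGs, 9 of which were called with V higher (run, Fisher's exact test, adjusted p = 0.000147). Of the runs of at least 20 CpGs that were not called, the nearest to equal were on SCAFFOLD7 from 3028331 to 3031380 (64.9% on both alleles over 21 CpGs), on SCAFFOLD1 from 4210564 to 4213430 (75.4% on both over 25) and on SCAFFOLD16 from 163538 to 165848 (75.4% on both over 42). Within these runs single CpGs still differed. The SD of Va minus Ga across CpGs was 15.6, 16.3 and 21.8 percentage points, and 0, 1 and 3 CpGs were called.

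In 158 runs called CpGs pointed both ways, among 1874 runs with any called CpG. The 3 with the most called CpGs in the lesser direction were examined. On SCAFFOLD22 from 2088356 to 2091668, 7 CpGs were called with V higher and 3 with G higher, and the 3 lay within 535 bp of the first CpG. At position 2088880 there 2 of 42 V reads and 40 of 41 G reads were methylated, and at position 2089833 36 of 40 V reads and 1 of 39 G reads. The run was called with V higher, but its direction turned when the spaced CpGs were taken from the last CpG (Va minus Ga −0.11 percentage points) or at a spacing of at least 500 bp (−16.9).

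On SCAFFOLD47 from 1053373 to 1054935, 3 CpGs were called with V higher, at 0 to 749 bp from the first CpG, and 5 with G higher, at 1021 to 1224 bp. At position 1054122 all 13 V reads and 3 of 20 G reads were methylated, and at position 1054411 none of 48 V reads and 31 of 34 G reads. The run as a whole was not called (Fisher's exact test, adjusted p = 0.909), with 52.9% on V and 65.6% on G. With all CpGs summed or with the spaced CpGs taken from the last it was called with G higher, and with a spacing of at least 500 bp with V higher. On SCAFFOLD51 from 785881 to 788077, 4 CpGs were called with V higher and 3 with G higher, and the run, with 51.7% and 44.2%, was not called. That run passed the test between the libraries described below. At its 23 shared CpGs V had 52.3% and G 43.0% in F1VG, and 60.3% and 28.6% in F1GV.

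Called runs lay on 242 scaffolds, and whether they cluster along the genome was not tested. The scaffolds with the most called runs were also among those with the most runs. SCAFFOLD1 had 106 called of 791 (63 with V higher and 43 with G higher), SCAFFOLD2 88 of 630 (41 and 47), SCAFFOLD4 67 of 485 (33 and 34), SCAFFOLD5 60 of 432 (40 and 20) and SCAFFOLD7 60 of 355 (32 and 28). Against the 14.6% called over all runs these are 13.4%, 14.0%, 13.8%, 13.9% and 16.9%. Among the 53 scaffolds with at least 50 runs the called share ranged from 3.92% on SCAFFOLD61 (2 of 51 runs) to 20.7% on SCAFFOLD33 (17 of 82 runs), with a median of 14.5%. V was higher in more of the called runs on 39 of these scaffolds, G on 10, and both were equal on 4. Scaffold counts and directions take called runs of all levels together, also the 813 with a mean level under 20%, and were not split by level. The strongest lean to G was on SCAFFOLD25, with 4 called runs with V higher and 10 with G higher (V share 28.6%, 11.7% to 54.6%). The runs with a difference of at least 50 percentage points lay on 105 scaffolds, with at most 6 on any one (SCAFFOLD7). SCAFFOLD1 and SCAFFOLD6 had 5 each, all with V higher, and SCAFFOLD2 had 5, of which 1 had V higher and 4 had G higher. Of the 6 runs on SCAFFOLD128 3 were of this size, all with V higher, and of the 5 runs on SCAFFOLD397 3 were, 1 with V higher and 2 with G higher.

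The comparison with F1GV addresses whether a difference follows the allele or the parent it came from, within the limit of a single library per cross. In F1GV the V allele is paternal and the G allele maternal. At the CpGs called with V higher in F1VG and listed in F1GV (3327), V had 67.4% and G 13.7% in F1GV, and the sign was the same at 91.1%. At those called with G higher (1524), V had 17.5% and G 63.0% in F1GV, with the same sign at 87.3%. These CpGs were called in F1VG, so that a narrower difference in F1GV is in part given by their choice. Of the 11571 runs with at least 4 CpGs in both libraries, 309 (2.67%) passed a test of the allele by library term (likelihood ratio test, adjusted over these runs). This term concerns the odds of methylation (methylated to unmethylated reads) on V relative to those on G. It was taken from counts summed over spaced CpGs and does not test Va minus Ga in percentage points. That test compares the reads of the libraries and not the crosses. Its runs and CpGs were chosen by F1VG counts that also enter the test, while F1GV counts had no part in the choice. A pass may therefore be in part given by that choice.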

How the data were processed

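Whole-genome bisulfite sequencing of female F1VG and F1GV adults, 1 library each, was analysed. The authors ran FastQC and Trimmomatic, used BWA to align single-end reads with both converted genomes (Nv and Ng, v1.0), kept unique alignments and sorted reads to alleles by informative SNPs or G-specific indels (CASAVA 1.8.2 is also listed in the submitters' processing notes). The deposited values are raw read counts, methylated and unmethylated, that were given per CpG separately for V, for G and for all reads, at CpGs with at least 8 reads on each allele. Their text says that mapping bias toward the reference was corrected and gives no method. At 401 CpGs (8 of them methylated CpGs) V plus G counts exceeded the count over all reads, and these were kept.

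Levels, two-sided Fisher's exact tests, Benjamini-Hochberg adjustment, Wilson intervals and likelihood ratio tests were computed in Python 3.11.15 (with Numba 0.67.0, pandas 2.3.3, SciPy 1.17.1 and NumPy 2.4.6), and Matplotlib 3.10.9 drew the figures. Each test was first tested on simulated data drawn at the depths of F1VG. Reads were drawn independently at each CpG, so PCR copies and reads shared between CpGs were not covered. The simulated CpG test was adjusted over the methylated CpGs alone. CpGs were adjusted over the whole table and runs over all runs, at adjusted p under 0.05. Alternatives changed the level, depth, gap, run size, spacing, test and threshold.

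Named were the 5 runs in each direction with the most called CpGs, the 3 in each direction of at least 10 CpGs with the widest mean difference, the 3 largest, the 3 uncalled of at least 20 CpGs nearest to equal, the 3 with the smallest p between libraries, the 3 with most CpGs called against the majority, the 3 CpGs in each direction with the smallest p, and the 5 scaffolds with the most called runs. Other scaffolds were named after their values were seen. The members, lists and tests were chosen with earlier results of these data known.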

Additional observations from a re-analysis of the deposited data

Results flagged for a closer look

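The likelihood ratio test of the allele by library term was passed by 309 of 11571 runs. It concerns the odds of methylation on V relative to G, so Va minus Ga can change little in a run that passes. On SCAFFOLD123 from 2041 to 14215, which passed, Va minus Ga changed by −2.20 percentage points. On SCAFFOLD52 from 368430 to 369536, which did not pass, the change was −19.6. Signs and changes are given here by the means over shared CpGs and not by the tested counts. The sign of the mean difference was opposite in 187 of the 309 and the median absolute change was 15.6 percentage points. In 199 of the 309 the mean level was at least 20% in F1VG, and in 110 it was under 20%. All runs were chosen by F1VG counts that also enter this test, so that a pass may be in part given by the choice. Of the called runs with a difference of at least 50 percentage points 8 were among the 309, none with opposite sign. With 1 library per cross, a change between crosses and a change between libraries cannot be told apart.

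The 3 runs with the smallest p of this test had intermediate levels. On SCAFFOLD9 from 3369896 to 3370810, 4 CpGs had 30.6% on V and 14.6% on G in F1VG and 4.69% and 32% in F1GV, a change of 43.4 percentage points. Its call in F1VG was lost when all CpGs were summed (adjusted p = 0.0738), when spaced CpGs were taken from the last (0.579) and with 16 reads on each allele (0.0897, Fisher's exact test). On SCAFFOLD2 from 4853529 to 4855622, 12 shared CpGs had 31.1% on V and 22.7% on G in F1VG and 49.5% and 12.1% in F1GV, a change of −29.0 percentage points. The counts that were tested there, over spaced CpGs, had another direction in F1VG. They were 26 of 87 V reads and 34 of 83 G reads methylated in F1VG, and 62 of 127 and 15 of 117 in F1GV. By these counts G was the higher in F1VG and V in F1GV. On SCAFFOLD28 from 1758846 to 1764351, 33 CpGs had 46.9% on V and 37.5% on G in F1VG and 31.3% and 38.6% in F1GV, a change of 16.7 percentage points, and the sign was opposite.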

How the results depend on the processing

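The V allele was the higher in most called CpGs and runs under every alternative. No alternative took runs under 20% or CpGs outside runs alone, and both leaned to G. The called runs with a mean level under 20% were 368 with V higher and 445 with G higher. The called CpGs outside runs were 115 and 165. The count of 4927 called CpGs was 10642 with adjustment over methylated CpGs only (63.7% with V higher), 1523 at a pooled level of at least 50% (66.6%) and 2065 where V and G depth were within 20% of each other. In runs only, 69.96% of called CpGs had V higher. The count of 1897 called runs, 58.4% with V higher, was 1250 at gaps of at most 200 bp (67.3%), 874 at a minimum of 10 CpGs (71.1%), 3078 with all CpGs summed, 1023 at adjusted p under 0.01 (62.8%), 736 with a mean difference of at least 20 percentage points and 940 with 16 reads on each allele (67.2%). An alternative chosen after seeing the data, counting only runs with a mean level of at least 20%, left 1084 (68.3%). The V share also moved with gaps of at most 500 bp (63.2%), a minimum of 3 (54.8%) or 6 CpGs (62.6%), and CpGs of at least 20% (67.5%). The 309 runs that passed the test between libraries were 788 with all CpGs summed, where reads that cover several CpGs are counted at each. They were 83 at adjusted p under 0.01, 105 with a change of at least 20 percentage points and 199 at a mean level of at least 20%. Of 144 checks of the 24 named runs 136 left the call, or its absence, as it was, and in 5 of these, all in runs that were not called, the sign of the difference turned. The SCAFFOLD22 run turned to −16.9 percentage points with a spacing of at least 500 bp and to −0.11 with CpGs taken from the last. The causes were not tested. No paired analysis was possible because each cross has 1 library. Depth limits single CpGs: at 17 reads per allele differences under 70.6 percentage points could not be called against an unmethylated allele, and 1 library per cross gives no estimate of variation between pools.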

Other observations

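Called CpGs outside runs leaned the other way. Of the 67759 methylated CpGs outside runs, 280 (0.413%) were called, 115 with V higher and 165 with G higher (V share 41.1%, 35.5% to 46.9%), against 69.96% with V higher in runs (68.6% to 71.3%). Most CpGs outside runs were low, with a median level of 12.0%, and 4312 of them (6.36%) were at 20% or more.

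Some called CpGs stood alone within runs. Of the 2914 CpGs called with V higher that had a methylated neighbour on each side in their run, 182 (6.25%) stood beside neighbours that were not called and differed by under 20 percentage points, and of the 1182 called with G higher 87 (7.36%). The former had 80.5% ± 15.3 on V and 9.98% ± 13.9 on G in F1VG, and 68.0% and 27.8% in F1GV. The latter had 14.0% ± 14.7 on V and 80.03% ± 15.1 on G in F1VG, and 33.4% and 56.8% in F1GV. Both sets were chosen by their F1VG values, so that a narrower difference in F1GV is in part given by the choice.

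The ends of strongly allele-specific runs were compared with their middles. In the 56 runs of at least 8 CpGs with V higher by at least 50 percentage points, the outermost CpG at each end had 59.1% on V and 10.9% on G, against 70.8% and 5.07% at the CpGs from the third inwards. In the 30 with G higher the outermost CpGs had 4.53% on V and 60.2% on G, against 4.17% and 76.8% further inwards. No test was made. Where a run ends is set by the same rule on level and gap that defines a run. These runs were also chosen by their mean difference. A lower level of the methylated allele and a narrower difference at the ends may therefore be in part given by these choices.

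The 13942 methylated CpGs that were not listed for F1GV had a median depth of 11 V and 10 G reads. Of these 76 (0.545%) were called, 39 with V higher and 37 with G higher, against 4851 (2.94%) of the 164860 listed for both, 68.6% of them with V higher.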
